A study of Mus musculus with 6 samples.

Results

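The long non-coding RNAs described here, known for staying in the nucleus, are Malat1, Miat, Neat1, Firre and Kcnq1ot1. They were chosen by gene symbol, with their difference between the groups already known, and they are 5 of the 54309 genes in the deposited table and hold 25 of its 140789 transcripts. All libraries came from L4 to L6 dorsal root ganglia (DRG), where the cell bodies of sensory neurons lie, of male C57bl/6 mice aged 8 to 10 weeks. In 3 libraries the mice had received AAV-Leptin-GFP, an adeno-associated virus carrying the hormone leptin together with GFP, and in 3 libraries AAV-GFP. In both groups the virus was given into both sciatic nerves 4 weeks before a dorsal column axotomy (DCA), which cuts the central sensory axons in the spinal cord, and tissue was taken 24 hours after the cut. The ganglia were dissociated with enzymes and separated on an albumin gradient that enriches neurons, and libraries were made with a stranded kit that selects polyadenylated RNA. The labels name neither the promoter of the vector nor the number of animals behind a library, so a p-value measures the spread between libraries.

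Most long RNAs leave the nucleus after splicing, and these do not. Malat1 gathers in nuclear speckles, the depots of splicing factors, and Neat1 builds paraspeckles, bodies that hold RNA-binding proteins. Neat1 has a short polyadenylated isoform and a long isoform that is needed for the paraspeckle scaffold. Miat, also called Gomafu, is a neuronal RNA with repeats that match the splicing branch point motif and bind splicing factors. Firre is transcribed from the X chromosome and binds the nuclear matrix protein Hnrnpu. Kcnq1ot1 is read from the paternal chromosome, antisense to the potassium channel gene Kcnq1, and silences neighbouring genes on that chromosome.

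The 3′ ends matter here because the libraries select poly(A) tails. The long Malat1 and Neat1 RNAs are known to be cut by RNase P and protected by a triple helix of U-rich runs and an A-rich tract in place of a poly(A) tail. Both sequences below are on the minus strand of GRCm38, from GENCODE M21 transcripts, with T written for U. Capitals mark the A-rich tract and every U-rich run found by a pattern, runs of T broken by other bases. Such a match does not show which runs join the helix. The middle Malat1 run, TTTTGTTTT, overlaps an inverted repeat (cctgagaaaac and GTTTTctcagg). They lie at chr19:5824708-5824807 for Neat1 and chr19:5795982-5796081 for Malat1.
Neat1-201, last 100 bases: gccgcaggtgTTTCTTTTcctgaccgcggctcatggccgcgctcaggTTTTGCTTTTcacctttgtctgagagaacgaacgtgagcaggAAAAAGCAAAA
Malat1-201, bases 6592 to 6691: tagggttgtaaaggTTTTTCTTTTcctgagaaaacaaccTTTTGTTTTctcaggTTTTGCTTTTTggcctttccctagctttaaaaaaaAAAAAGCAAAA
Both stretches close with the same 11 bases, AAAAAGCAAAA. This tract was found in 31 of 4222 other long non-coding transcripts of at least 2000 bases (0.734%).

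The annotated ends of the short Neat1 isoform and of Malat1-201 carry a poly(A) signal instead. They are shown to set beside the tract above, with AATAAA in capitals, and lie at chr19:5842307-5842366 and chr19:5795690-5795749, both on the minus strand.
Neat1-202, last 60 bases: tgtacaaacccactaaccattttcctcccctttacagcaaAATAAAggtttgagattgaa
Malat1-201, last 60 bases: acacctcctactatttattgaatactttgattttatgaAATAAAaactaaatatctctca
The annotated Malat1-201 thus runs past the A-rich tract to a downstream signal, whereas the annotated Neat1-201 stops at the tract.

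The Miat repeats are shown because they set the long Miat isoforms apart from the short ones. The stretches are at chr5:112217313-112217456 and chr5:112216756-112216808 on the minus strand, with TACTAAC in capitals, searched on the transcript strand.
Miat-201, bases 4532 to 4675: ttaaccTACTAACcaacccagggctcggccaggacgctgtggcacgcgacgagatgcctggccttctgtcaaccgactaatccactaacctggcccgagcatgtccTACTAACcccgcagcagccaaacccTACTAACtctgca
Miat-201, bases 5180 to 5232: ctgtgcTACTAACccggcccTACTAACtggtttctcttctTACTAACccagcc
Miat-201 and Miat-205 each held 6 copies, and the short isoforms Miat-202, Miat-204 and Miat-206 held 0. TACTAAC occurred in 323 of the 4222 other long non-coding transcripts (7.65%), at most 4 times in one.

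Values are TPM, which give each transcript's part of a library after correction for length, and gene values are sums over transcripts. The number of reads is not kept in TPM, so library depth is unknown. Transcripts above 0 numbered 64423, 64087 and 61474 with AAV-Leptin-GFP and 60572, 55476 and 55954 with AAV-GFP. The groups did not overlap, and replicate 1 of AAV-GFP was highest and replicate 2 lowest, as for every member below. The relation of this number to the members was not tested. Differences are given as log2(TPM + 1), AAV-Leptin-GFP minus AAV-GFP, which understates low genes, and groups are given as mean ± SD with n = 3. Lep itself was listed at 0.751, 0.547 and 3.56 TPM in the AAV-Leptin-GFP libraries and at 0 in every AAV-GFP library. Summed neuronal markers lay at 22320 to 22960 TPM with AAV-Leptin-GFP and at 22690 to 24120 TPM with AAV-GFP. Satellite glia markers summed to 7245 to 7953 TPM with AAV-Leptin-GFP, against 8092 to 9246 TPM with AAV-GFP. Most of that sum was Apoe, at 6229 ± 284 TPM with AAV-Leptin-GFP and 7164 ± 464 TPM with AAV-GFP. By log2 difference 2 of these markers lay above 0 and 4 below. Schwann cell markers summed to 887 to 977 TPM with AAV-Leptin-GFP and 999 to 1044 TPM with AAV-GFP, with 2 above 0 and 5 below. Both defining T cell markers were under the filter, and macrophage markers reached at most 21.5 TPM with AAV-Leptin-GFP and 28.9 TPM with AAV-GFP.

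Malat1 (ENSMUSG00000092341, chr19:5795690-5802672, minus strand) stood at 319, 316 and 303 TPM with AAV-Leptin-GFP, listed here and below by replicate number. It had 158, 57.8 and 72.5 TPM with AAV-GFP. The 3 leptin libraries were close together and all above the highest AAV-GFP library, replicate 1. Group means were 313 ± 8.38 TPM with AAV-Leptin-GFP and 96.1 ± 54.1 TPM with AAV-GFP, a log2 difference of 1.83 (SE 0.33).

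Miat (ENSMUSG00000097767, chr5:112213228-112229395, minus strand) had 272, 286 and 213 TPM with AAV-Leptin-GFP and 84.1, 17.4 and 37.4 TPM with AAV-GFP. The groups did not overlap, and the AAV-GFP libraries differed among themselves by 4.84 times from lowest to highest, against 1.34 times in the leptin libraries. The log2 difference was 2.71 (SE 0.48) and ranked 10 in size among 15108 tested genes.

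Neat1 (ENSMUSG00000092274, chr19:5824708-5845478, minus strand) had 79.3, 105 and 50.5 TPM with AAV-Leptin-GFP and 43.5, 19.2 and 27.3 TPM with AAV-GFP. The lowest leptin library lay just above the highest AAV-GFP library. The means were 78.2 ± 27.1 TPM with AAV-Leptin-GFP and 30.0 ± 12.4 TPM with AAV-GFP, a log2 difference of 1.37 (SE 0.34).

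Firre (ENSMUSG00000085396, chrX:50555744-50635321, minus strand) had 52.3, 60.1 and 40.9 TPM with AAV-Leptin-GFP and 21.7, 7.22 and 11.8 TPM with AAV-GFP. The groups were apart, with a log2 difference of 1.95 (SE 0.34) between means of 51.1 ± 9.64 TPM with AAV-Leptin-GFP and 13.6 ± 7.41 TPM with AAV-GFP.

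Kcnq1ot1 (ENSMUSG00000101609, chr7:143203458-143296549, minus strand) is a single unspliced transcript of 93092 bases and was far below the others per length. It had 0.262, 0.278 and 0.280 TPM with AAV-Leptin-GFP and 0.148, 0.0880 and 0.0977 TPM with AAV-GFP. The groups did not overlap, at a ratio of means of 2.46. Multiplied by length in kilobases, which tracks fragments rather than molecules, Kcnq1ot1 reached 24.4, 25.9 and 26.1 with AAV-Leptin-GFP and 13.8, 8.19 and 9.10 with AAV-GFP. On that scale the long Neat1 isoform, at 50.2, 65.2 and 27.7 with AAV-Leptin-GFP and 22.1, 9.84 and 15.2 with AAV-GFP, was of a similar order. Kcnq1ot1 overlaps Kcnq1 on the other strand, and no source used here states the strand setting of the quantification, so reads of the 2 genes may not be fully separated.

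**Figure D1:**
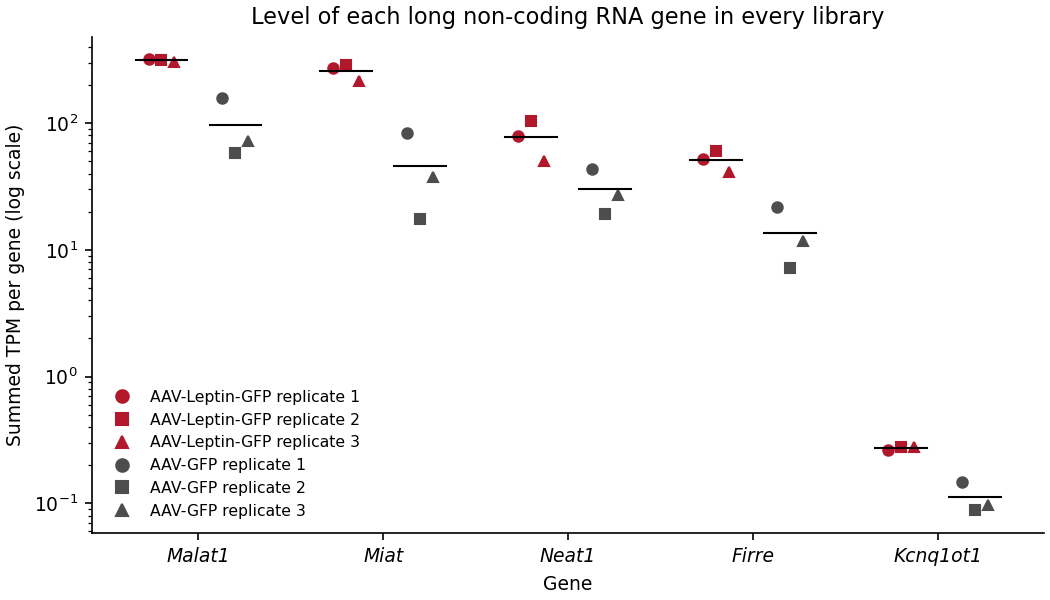
Summed TPM (log axis) of Malat1, Miat, Neat1, Firre and Kcnq1ot1 in each of the 3 AAV-Leptin-GFP libraries (red, left) and 3 AAV-GFP libraries (grey, right), with bars for group means. In each gene the 3 red points lie above the grey ones, and the highest grey point is AAV-GFP replicate 1.

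Malat1, Miat and Firre were past a limma adjusted p under 0.05 in the fit over all genes (adjusted p = 0.0466, 0.0478 and 0.0448), and Neat1 was not (limma adjusted p = 0.0898). That is 3 of the 4 members that passed the filter of a mean of 1 TPM, where 1.54% of all tested genes were called higher, 0.0662% lower and 1.61% either way. All 5 had groups that did not overlap, with the leptin libraries higher, as did 13.3% of tested genes (11.9% in the other direction). Since this contrast chose the members, nothing is read from these counts. Kcnq1ot1 was under the filter, and with a filter and pseudocount of 0.1, chosen after its values were seen, its log2 difference was 0.83 (SE 0.42, limma adjusted p = 0.384). In bulk libraries a change in cell number and a change in RNA per cell cannot be told apart.

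The calls depended on the libraries kept. Without AAV-GFP replicate 1 the log2 differences were 2.25 for Malat1, 3.27 for Miat, 1.67 for Neat1 and 2.33 for Firre, with limma adjusted p of 0.00105, 0.00786, 0.0506 and 0.00889. Leaving out any other library left none of the 4 past the threshold, with limma adjusted p from 0.104 for Firre to 0.255 for Neat1.

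**Figure D2:**
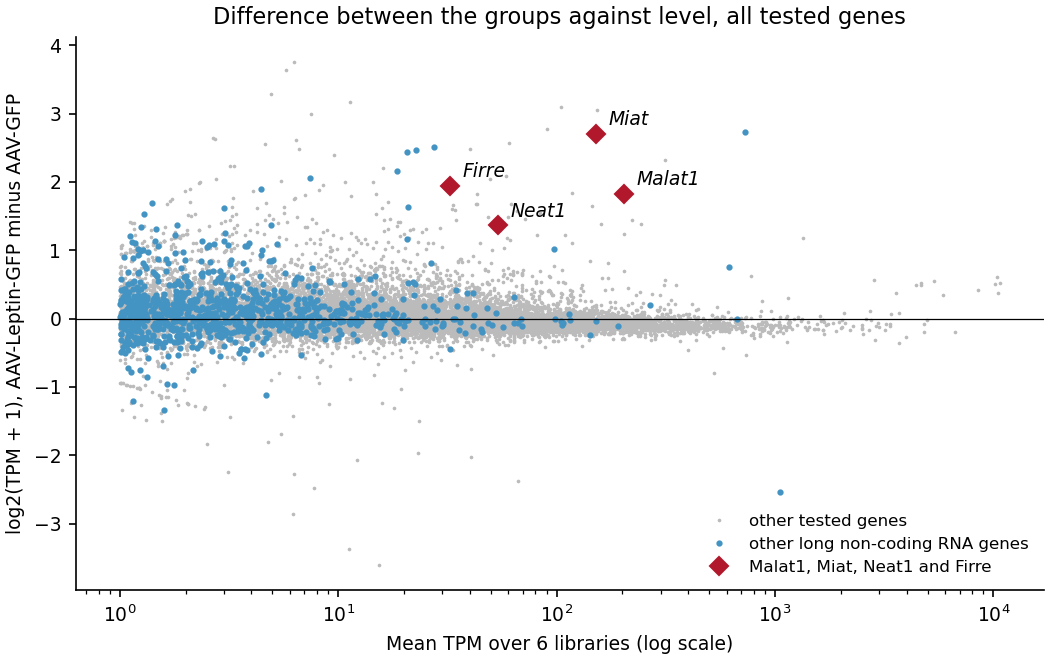
Log2 difference, AAV-Leptin-GFP minus AAV-GFP, of the 15108 tested genes against mean TPM over 6 libraries (log axis), with long non-coding RNA genes in blue. Malat1, Miat, Neat1 and Firre (red diamonds) lie between 1.37 and 2.71, above the 5th to 95th percentile range of -0.24 to 0.57 over all tested genes.

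The order of summed levels, which TPM allows because it is length-corrected, was Malat1, Miat, Neat1, Firre and Kcnq1ot1 by group mean in both groups. Short isoforms count in full in these sums, and poly(A) selection may lower RNAs that end without a tail. Malat1 was above Miat in 6 of 6 libraries, Miat above Neat1 in 5 of 6 and Neat1 above Firre in 6 of 6. The full-length isoform Malat1-201 alone, at 175, 182 and 178 TPM, lay below summed Miat in every AAV-Leptin-GFP library. It lay above Miat-201 alone there (171, 166 and 137 TPM), and above summed Miat in every AAV-GFP library. With AAV-Leptin-GFP the ranges of Neat1 and Firre overlapped, while Malat1 and Miat did not. With AAV-GFP every neighbouring pair among the first 4 overlapped. Among 9744 long non-coding RNA genes Malat1 ranked 5 with AAV-Leptin-GFP and 15 with AAV-GFP, and Firre ranked 26 with AAV-Leptin-GFP and 92 with AAV-GFP.

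All 5 genes put the AAV-GFP libraries in the same order, replicate 1 highest and replicate 2 lowest, an order shown by 23.5% of tested genes. Neat1, Miat and Firre also shared an order with AAV-Leptin-GFP, replicate 2 highest and replicate 3 lowest (26.1% of tested genes). Malat1 and Kcnq1ot1 each had another order there, within a narrow range of 1.05 and 1.07 times.

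The isoforms were then taken apart, long against short. Of the 25 transcripts 3 were listed at 0 in every library and 17 had a mean of at least 1 TPM. None of the 17 passed a limma adjusted p under 0.05 over 33615 tested transcripts, where 0.107% were called higher and 0.0238% lower. At an unadjusted limma p under 0.05, 14 of 17 were higher (12.3% of all tested transcripts), and 14 had groups that did not overlap (15.0%). They are isoforms of genes chosen by this same contrast and share sequence, so nothing is read from these counts either. Salmon divides reads among isoforms by the sequence they do not share, so the split is less certain for isoforms with little of it. The share of 31-base words found in no other isoform of the gene was 82.8% for Neat1-201 but 0% for Neat1-202, 78.9% for Malat1-201 and 5.71% for Malat1-203, and 0.3% for Miat-201.

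The long Neat1-201 (20771 bases, 1 exon) had 2.42, 3.14 and 1.34 TPM with AAV-Leptin-GFP and 1.06, 0.474 and 0.731 TPM with AAV-GFP. The short Neat1-202 (3004 bases) averaged 71.3 ± 22.8 TPM with AAV-Leptin-GFP and 27.1 ± 11.4 TPM with AAV-GFP. Both isoforms were apart between the groups, with log2 differences of 0.88 (SE 0.29, limma adjusted p = 0.181) for the long and 1.39 (SE 0.36, limma adjusted p = 0.106) for the short one. On this scale the difference of the long isoform is understated by its low level, as the ratio of means was 3.04 for Neat1-201 and 2.63 for Neat1-202. The long isoform stood at 3.33, 3.36 and 2.79 TPM per 100 TPM of the short one with AAV-Leptin-GFP and at 2.71, 2.89 and 2.84 with AAV-GFP. These ratios overlapped between the groups (exact two-sided permutation p = 0.3, smallest possible 0.1 with 3 against 3). The libraries select poly(A) tails and the long RNA is known to lack one, so the ratios need not give the proportion in the cells. Neat1-203 (1030 bases) overlapped between groups, at 4.59 ± 3.33 TPM with AAV-Leptin-GFP and 2.13 ± 1.22 TPM with AAV-GFP.

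The full-length Malat1-201 (6983 bases, the isoform that holds the A-rich tract) averaged 178 ± 3.27 TPM with AAV-Leptin-GFP and 61.8 ± 25.5 TPM with AAV-GFP, a log2 difference of 1.59 (SE 0.25, limma adjusted p = 0.0619). Malat1-203, a spliced form of 485 bases at the 5′ end, averaged 134 ± 9.12 TPM with AAV-Leptin-GFP and 34.3 ± 29.3 TPM with AAV-GFP (2.31, SE 0.61, limma adjusted p = 0.112). The short form stood at 81.9, 73.9 and 70.4 TPM per 100 TPM of the long one with AAV-Leptin-GFP. With AAV-GFP it stood at 73.2, 20.8 and 56.5 per 100. Replicate 2 of AAV-GFP was the low one, and the groups overlapped (exact permutation p = 0.2).

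Among the Miat isoforms, 2 short ones differed by a larger ratio than the long ones. The long Miat-201 (8758 bases) averaged 158 ± 18.0 TPM with AAV-Leptin-GFP and 32.0 ± 23.1 TPM with AAV-GFP, a log2 difference of 2.52 (SE 0.50, limma adjusted p = 0.0717). The other long isoform, Miat-205 (9163 bases), averaged 28.1 ± 8.85 TPM with AAV-Leptin-GFP and 5.21 ± 5.26 TPM with AAV-GFP (2.50). Of the short isoforms, which lack the TACTAAC repeats, Miat-206 (357 bases) had 33.2, 43.7 and 29.0 TPM with AAV-Leptin-GFP and 6.56, 0.857 and 3.26 TPM with AAV-GFP. Its ratio of means was 9.92, against 4.94 for Miat-201, and its log2 difference 3.19 (SE 0.49, limma adjusted p = 0.0609). Miat-202 (747 bases) averaged 34.1 ± 6.38 TPM with AAV-Leptin-GFP and 4.73 ± 2.89 TPM with AAV-GFP (2.72, limma adjusted p = 0.0526).

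Per 100 TPM of Miat-201, Miat-206 stood at 19.5, 26.3 and 21.1 TPM with AAV-Leptin-GFP and at 11.4, 6.93 and 12.5 with AAV-GFP. The groups did not overlap (exact permutation p = 0.1, the smallest possible). Miat-202 per 100 TPM of Miat-201 was also apart, at 21.5 ± 2.58 with AAV-Leptin-GFP and 15.7 ± 2.04 with AAV-GFP (exact permutation p = 0.1). The share of all Miat TPM on Miat-201 was 61.8% ± 3.25 with AAV-Leptin-GFP and 69.8% ± 1.47 with AAV-GFP, but weighted by length the shares overlapped, at 82.7% ± 2.92 with AAV-Leptin-GFP and 85.3% ± 3.91 with AAV-GFP. Miat-204 (284 bases) overlapped between the groups at 1.33 ± 0.980 TPM with AAV-Leptin-GFP and 0.814 ± 0.754 TPM with AAV-GFP.

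Shares of the Firre isoforms overlapped between the groups. The long Firre-206 (5555 bases, 20 exons) averaged 16.7 ± 2.33 TPM with AAV-Leptin-GFP and 4.34 ± 2.42 TPM with AAV-GFP (log2 difference 1.82, SE 0.32, limma adjusted p = 0.0649). It held 33.0% ± 2.28 of Firre TPM with AAV-Leptin-GFP and 31.9% ± 1.01 with AAV-GFP (exact permutation p = 0.6). The shorter Firre-208, Firre-209, Firre-210, Firre-203 and Firre-202 had log2 differences of 1.35 to 1.62 and groups that did not overlap. Firre-204 overlapped, at 1.98 ± 1.27 TPM with AAV-Leptin-GFP and 0.829 ± 0.886 TPM with AAV-GFP.

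**Figure D3:**
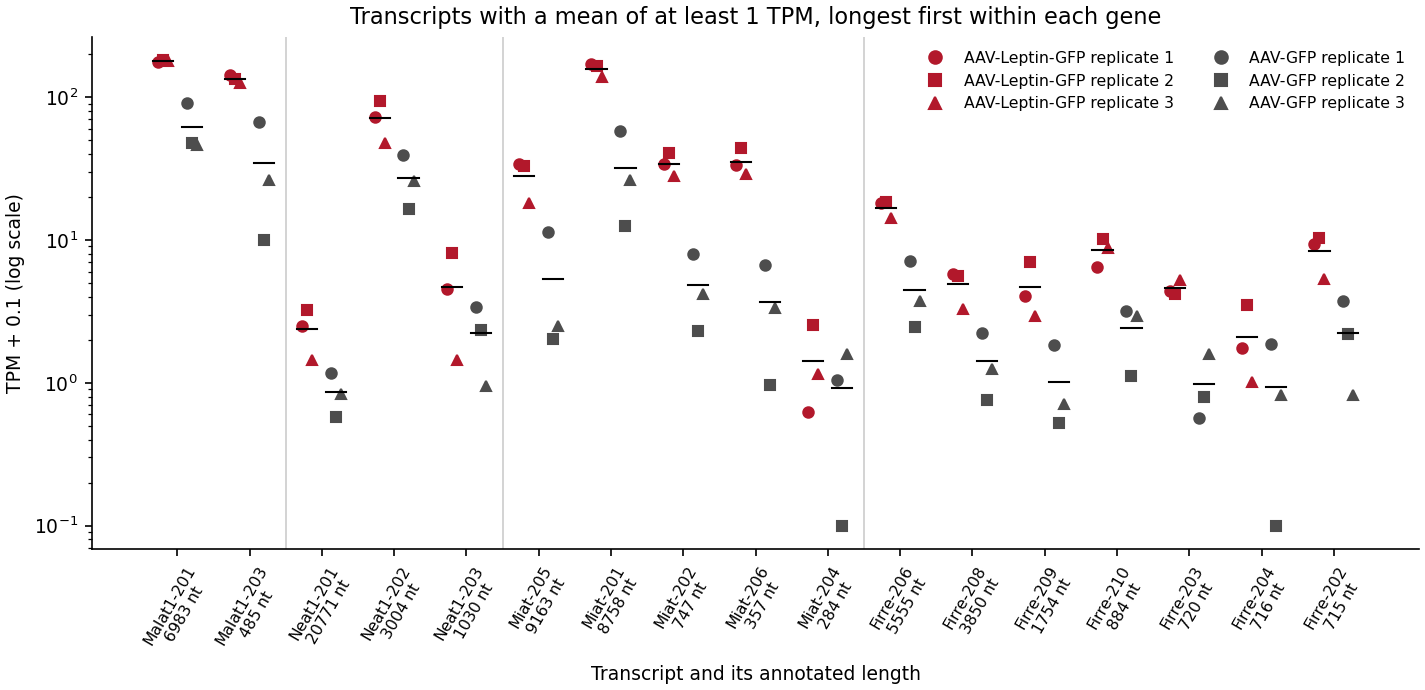
TPM + 0.1 (log axis) of the 17 transcripts with a mean of at least 1 TPM, longest first within each gene, in the AAV-Leptin-GFP libraries (red, left) and the AAV-GFP libraries (grey, right), with bars for group means. Red points lie above grey ones in 14 transcripts, and Neat1-203, Miat-204 and Firre-204 overlap.

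The Malat1 promoter, from RefSeq on GRCm38.p6, is shown because the members differed in the same direction between the groups. It lies at chr19:5802623-5802922 on the minus strand, with matches to the cAMP response half-site TGACG, on either strand, in capitals.
Malat1 promoter: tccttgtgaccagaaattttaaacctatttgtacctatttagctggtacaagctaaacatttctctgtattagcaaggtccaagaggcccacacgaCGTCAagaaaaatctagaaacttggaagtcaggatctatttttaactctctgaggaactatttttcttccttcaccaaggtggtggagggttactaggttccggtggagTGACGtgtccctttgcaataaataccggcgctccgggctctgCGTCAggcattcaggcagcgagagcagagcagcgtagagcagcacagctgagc
The 3 matches start 154, 45 and 3 bases before the start site. Such a match occurred in 21.021% of 27025 promoters of the same length, and the Kcnq1ot1 promoter held 1 and those of Miat and Firre 0. The STAT motif TTCNNNGAA (8.466% of promoters), the AP-1 motif TGANTCA (7.933%) and TATAAA (14.161%) had no match in the 4 promoters. No Neat1 promoter was available, so Neat1 was not searched.

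The share of retained-intron transcripts, which keep an intron, moved with the members. Transcripts annotated as retained-intron took 3.60%, 3.75% and 3.24% of all TPM with AAV-Leptin-GFP and 2.50%, 2.10% and 2.27% with AAV-GFP. The 5 members together took 0.0723%, 0.0767% and 0.0608% of TPM with AAV-Leptin-GFP, against 0.0307%, 0.0102% and 0.0149% with AAV-GFP. Both measures put the libraries of each group in the same order, and their relation was not tested. All other long non-coding RNA genes together overlapped, at 1.16%, 1.06% and 0.999% with AAV-Leptin-GFP and 0.942%, 1.27% and 0.842% with AAV-GFP (exact permutation p = 0.7). In AAV-GFP replicate 2, the highest of these, the small RNA Bc1 alone stood at 4595 TPM. Bc1 had 714 and 62.5 TPM in the other AAV-GFP libraries and 887, 68.8 and 16.2 TPM with AAV-Leptin-GFP. The share without Bc1 was not computed, so the overlap does not show that the rest stayed level. Mitochondrially encoded genes took 7.74%, 7.35% and 9.15% with AAV-Leptin-GFP, all above the 6.13%, 5.84% and 5.66% with AAV-GFP. Erythroid markers summed to 239 to 1724 TPM with AAV-Leptin-GFP and 170 to 256 TPM with AAV-GFP. None of the 5 was called, and 2 were higher and 0 lower at an unadjusted limma p under 0.05. Of all tested genes 11.3% were higher by that measure. The highest erythroid sum was in AAV-Leptin-GFP replicate 3, where Malat1, Miat, Neat1 and Firre were lowest of their group. The part of these measures in the result was not tested.

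**Figure D4:**
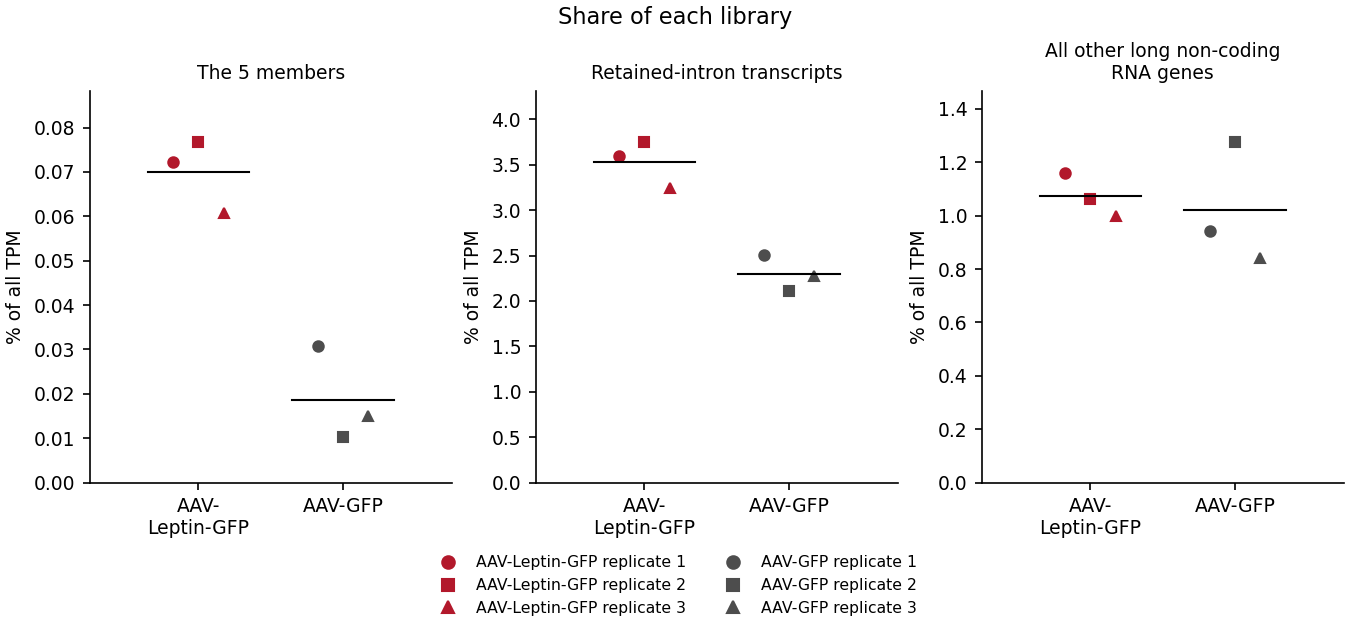
Percent of all TPM taken by the 5 members, by retained-intron transcripts and by all other long non-coding RNA genes, with each AAV-Leptin-GFP library (red, left) and AAV-GFP library (grey, right) as a point and group means as bars. The first 2 panels show groups apart, at 3.53% with AAV-Leptin-GFP and 2.29% with AAV-GFP for retained-intron transcripts, while the third panel overlaps. The highest point of the third panel is AAV-GFP replicate 2, where Bc1 alone had 4595 TPM.

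Genes for proteins of nuclear speckles, where Malat1 resides, leaned the same way. Of 26 tested, 6 rose and 0 fell (17 higher and 0 lower at an unadjusted limma p under 0.05). Over all tested genes the shares were 1.54% called higher and 11.3% higher by the unadjusted limma p. The list's median log2 difference was 0.35, against -0.00016 over all tested genes. This list and those below were chosen with earlier results of these data known. Their counts and medians may reflect that choice. The speckle core protein gene Srrm2 had 237, 227 and 189 TPM with AAV-Leptin-GFP and 104, 52.9 and 59.1 TPM with AAV-GFP (1.64, SE 0.24, limma adjusted p = 0.0298). Snrnp70, the U1 particle protein, averaged 154 ± 20.1 TPM with AAV-Leptin-GFP and 65.7 ± 13.2 TPM with AAV-GFP (1.22, limma adjusted p = 0.0209). The splicing activator Srsf1 differed by 0.42 (limma adjusted p = 0.0331).

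Part of that difference, and most of it for Snrnp70 and Srsf1, sat on retained-intron transcripts. Those of Snrnp70 averaged 91.5 ± 12.7 TPM with AAV-Leptin-GFP and 17.01 ± 11.4 TPM with AAV-GFP. Its protein-coding transcripts averaged 58.0 ± 8.10 TPM with AAV-Leptin-GFP and 47.4 ± 1.73 TPM with AAV-GFP. For Srsf1 the retained-intron transcripts averaged 48.1 ± 3.21 TPM with AAV-Leptin-GFP and 26.5 ± 3.49 TPM with AAV-GFP. The protein-coding ones of Srsf1 averaged 73.3 ± 4.64 TPM with AAV-Leptin-GFP and 68.2 ± 0.231 TPM with AAV-GFP. With retained-intron transcripts left out 1 of 26 speckle genes rose, Srrm2 (1.36, limma adjusted p = 0.0278), and the list median was 0.09. In that fit 20 of the genes lay above 0 and 6 below, against 26 above 0 with these transcripts kept. Without AAV-GFP replicate 1, 9 rose, and without any other library 0.

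Paraspeckle protein genes, the partners of Neat1, gave 2 of 30 that rose and 0 that fell, with a median of 0.14, where 1.54% of all tested genes were called higher. At an unadjusted limma p under 0.05, 13 were higher and 0 lower (11.3% of all tested genes higher). Sfpq, which is essential for paraspeckles, averaged 95.6 ± 8.38 TPM with AAV-Leptin-GFP and 71.8 ± 3.24 TPM with AAV-GFP (0.41, SE 0.07, limma adjusted p = 0.0448). Ewsr1, an RNA-binding protein of the FET family, averaged 123 ± 14.2 TPM with AAV-Leptin-GFP and 71.6 ± 5.24 TPM with AAV-GFP (0.77, SE 0.09, limma adjusted p = 0.0210). Most of the Ewsr1 difference lay on transcripts annotated as processed, without a coding frame, at 63.5 ± 11.5 TPM with AAV-Leptin-GFP and 21.1 ± 2.77 TPM with AAV-GFP, while protein-coding ones averaged 59.6 ± 3.18 TPM with AAV-Leptin-GFP and 50.6 ± 2.51 TPM with AAV-GFP. For Sfpq the processed transcripts averaged 23.8 ± 4.47 TPM with AAV-Leptin-GFP and 8.37 ± 1.26 TPM with AAV-GFP, and the protein-coding ones 71.9 ± 7.06 TPM with AAV-Leptin-GFP and 63.4 ± 1.99 TPM with AAV-GFP. The other core proteins Nono and Pspc1 stood at -0.05 and -0.17 (limma adjusted p = 0.657 and 0.459). The number called was 3 when AAV-GFP replicate 1 was dropped, 1 when AAV-Leptin-GFP replicate 3 was dropped, and 0 when any other library was.

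Genes that process the Malat1 3′ end, mostly RNase P subunits, gave 0 of 13 called, with 0 higher and 1 lower at an unadjusted limma p under 0.05. Of all 15108 tested genes 233 were called higher and 10 lower. By the unadjusted limma p 1703 were higher and 1237 lower, and 7562 lay below 0. The median of the 13 was -0.06, with 3 above 0 and 10 below. The smallest p belonged to the subunit gene Pop7 (22.7 ± 0.346 TPM with AAV-Leptin-GFP, 29.2 ± 2.34 TPM with AAV-GFP, limma adjusted p = 0.0664). Without AAV-GFP replicate 1 Pop7 was called lower (-0.40, limma adjusted p = 0.0425). Protein partners of Miat, Firre and Kcnq1ot1 gave 0 of 13 called, with 4 higher and 0 lower at an unadjusted limma p under 0.05 and a median of 0.13. Hnrnpu, the partner of Firre, had 157, 158 and 137 TPM with AAV-Leptin-GFP and 124, 106 and 109 TPM with AAV-GFP (0.41, SE 0.08, limma adjusted p = 0.0584). Its processed transcripts averaged 30.8 ± 4.03 TPM with AAV-Leptin-GFP and 6.14 ± 3.79 TPM with AAV-GFP, and its retained-intron ones 9.52 ± 0.838 TPM with AAV-Leptin-GFP and 1.73 ± 0.850 TPM with AAV-GFP. Its protein-coding transcripts averaged 37.1 ± 2.71 TPM with AAV-Leptin-GFP and 32.8 ± 1.66 TPM with AAV-GFP. With quantile normalization, median ratio scaling or mitochondrial genes left out, 2 of the 13 partners were called, and 1 was without AAV-GFP replicate 1. Hnrnpu was past the threshold in these 4 fits (limma adjusted p 0.0413, 0.0318, 0.0377 and 0.0335).

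At the loci themselves, 1 of 9 tested neighbours of Malat1 and Neat1 was called, where 1.54% of all tested genes were called higher and 0.0662% lower. Ltbp3, a latent TGF-β binding protein, averaged 104 ± 6.58 TPM with AAV-Leptin-GFP and 64.4 ± 9.18 TPM with AAV-GFP (0.69, SE 0.10, limma adjusted p = 0.0301). Its retained-intron transcripts averaged 54.9 ± 8.07 TPM with AAV-Leptin-GFP and 11.2 ± 10.2 TPM with AAV-GFP. Its protein-coding ones averaged 49.0 ± 1.56 TPM with AAV-Leptin-GFP and 53.2 ± 1.49 TPM with AAV-GFP. Left without the retained-intron transcripts it was at -0.10 (limma adjusted p = 0.370). Frmd8, also beside Malat1 and Neat1, stood at 0.16 (limma adjusted p = 0.461).

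In the imprinted domain of Kcnq1ot1 0 of 9 tested genes were called, and 0 were past an unadjusted limma p under 0.05 either way. Of all 15108 tested genes 1703 were higher and 1237 lower by the unadjusted limma p, and 7562 lay below 0. All 9 of the domain lay below 0 (median -0.11), though 1 turned above 0 with mitochondrial genes left out and 1 with retained-intron transcripts left out. Without AAV-Leptin-GFP replicate 3 or AAV-GFP replicate 1 the count below 0 was 7, with medians of -0.04 each. Phlda2, an imprinted growth regulator, had 2.90, 2.25 and 1.88 TPM with AAV-Leptin-GFP and 2.69, 2.98 and 4.35 TPM with AAV-GFP (-0.37, limma adjusted p = 0.341). Cdkn1c, the imprinted cell cycle inhibitor, stood at -0.14. Kcnq1 was under the filter, at 0.471, 0.343 and 0.315 TPM with AAV-Leptin-GFP and 0.380, 1.27 and 0.424 TPM with AAV-GFP, where replicate 2 stood apart and the groups overlapped. Neighbours of Miat gave 0 of 9 called (1 higher, 0 lower unadjusted, limma), with Hps4 at 0.59 (limma adjusted p = 0.119). Neighbours of Firre gave 0 of 6 (0 higher, 1 lower unadjusted, limma), with Rap2c at -0.12 (limma adjusted p = 0.215).

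**Figure D5:**
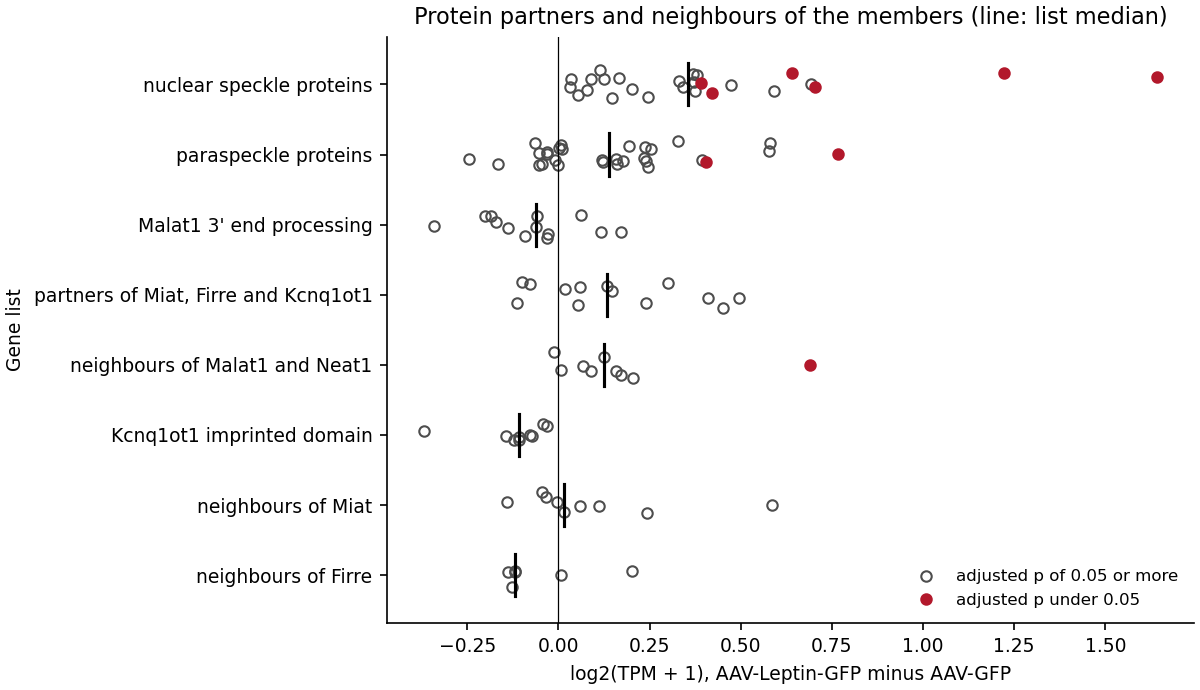
Log2 difference, AAV-Leptin-GFP minus AAV-GFP, of each tested gene in 8 lists of protein partners and locus neighbours, with filled red points for a limma adjusted p under 0.05 and a line at each list median. Speckle protein genes have the highest median, 0.35, with 26 of 26 points above 0, and the Kcnq1ot1 domain lies at -0.11.

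Of 28 other well known long non-coding RNAs tested, 5 rose and 0 fell (14 higher and 0 lower at an unadjusted limma p under 0.05), with a median of 0.33. Over all tested genes 1.54% were called higher and 11.3% were higher by the unadjusted limma p. The list was chosen with earlier results of these data known, so its median may reflect that choice. Over all 919 tested long non-coding RNA genes other than the members, 22 were called higher and the median was 0.08. Snhg14, a host transcript of small nucleolar RNAs, had 130, 140 and 123 TPM with AAV-Leptin-GFP and 68.1, 61.5 and 62.5 TPM with AAV-GFP (1.02, SE 0.07, limma adjusted p = 0.00349). Rian, of the imprinted Dlk1 and Meg3 cluster, differed by 0.75 (limma adjusted p = 0.0285). Snhg14 stayed past the threshold without each library in turn, and Rian and Snhg11 (2.33 over all libraries) did so without AAV-GFP replicate 1 alone.

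Likeness of profile over the 6 libraries was measured as the root mean square difference of centred log2(TPM + 1), where smaller is more alike. The measure spans both groups, so it includes the difference between them by which the members were chosen. Nearness therefore partly restates the size of that difference. For Malat1 the 3 nearest genes were Rgs11 (0.15), Spaca6 (0.15) and Col11a1 (0.16). For Neat1 they were Lmtk3 (0.13), Arhgap33 (0.17) and Safb2 (0.18), and for Firre Gm37795 (0.07), Gm42937 (0.08) and Leng8 (0.11). The 3 nearest to Miat were all long non-coding, Meg3 (0.11), C78859 (0.14) and Mir124a-1hg (0.17), with Meg3 at 1313, 1361 and 1005 TPM with AAV-Leptin-GFP and 450, 85.4 and 155 TPM with AAV-GFP. Among the members Malat1 and Firre were closest (0.18), each the sixth nearest of the other, and Neat1 and Miat farthest (0.76).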

How the data were processed

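The authors deposited TPM per Ensembl transcript for 6 libraries, 3 AAV-Leptin-GFP and 3 AAV-GFP. The submitters' processing notes name Salmon 1.6.0, DESeq2 1.34.0, Trim Galore 0.6.6 and FastQC 0.11.9 and the builds GRCm38 and mm10, without roles. No source used here states the annotation release. Classes, lengths and coordinates were looked up by identifier in GENCODE M21 (97.4% of transcripts found). Only 37 of the 137161 found carry the same version suffix there, so the values come from another release. The printed lengths, values multiplied by length, shares of distinct sequence and transcript sequences are those of GENCODE M21 and may differ from the models the authors used.

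TPM were summed by gene identifier. Genes and transcripts with a mean of at least 1 TPM entered a limma fit (version 3.58.1, R 4.3.3) of log2(TPM + 1) (moderated, mean-variance trend, two-sided, Benjamini-Hochberg over all features, threshold 0.05). Isoform and class shares were compared by exact permutation over libraries. TPM hold no depth, so no counting intervals are given. The script was tested on simulated data. Tables and plots used Python 3.11.15, pandas 2.3.3, numpy 2.4.6 and matplotlib 3.10.9.

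The members and the gene lists were chosen with earlier results of these data known. Named genes are the members, their transcripts with a mean of at least 1 TPM, up to 3 called genes of each list with the smallest p or else the one with the smallest p, and the 3 genes most alike to each member. Other genes were named after their values were seen. Alternatives covered the filter, pseudocount, scaling, trend, transcript classes, a replicate block and each library left out.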

Additional observations from a re-analysis of the deposited data

How the results depend on the processing

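The log2 differences of Malat1, Miat, Neat1 and Firre stayed above 0 in all 17 alternatives, while the calls of Malat1, Miat and Firre held in 6 of 17 (limma adjusted p 0.00105 to 0.199, 0.00786 to 0.203 and 0.00889 to 0.199). Neat1 was called in 0 of 17 (0.0506 to 0.255). The calls of Malat1, Miat and Firre were lost, to 0 members called, with a filter of 0.1 TPM or none, without the trend and with the replicate block (log2 1.83, 2.71 and 1.95 each time), with retained-intron transcripts left out (1.85, 2.73 and 1.97), and with a filter and pseudocount of 0.1 added after seeing the data (1.84, 2.74 and 2.03). In that last setting Kcnq1ot1 stood at 0.83, against 0.20.

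Genes called numbered 243, against 152 with a filter of 0.1 TPM, 4 with none, 378 with median ratio scaling, 81 without retained-intron transcripts, 35 without the trend and 74 with the replicate block. Transcripts called numbered 44, against 20, 5, 249, 22, 491 and 0 in the same settings, 8 with a pseudocount of 0.1, 67 with quantile normalization, 183 without mitochondrial genes and 71 with both filter and pseudocount at 0.1. Called list genes numbered 14, against 7, 1, 26, 4, 1 and 5 in the same 6 settings, 24 with quantile normalization and 23 without mitochondrial genes. Member transcripts called were 0, against 1 with median ratio scaling, 1 without mitochondrial genes and 2 without the trend.

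Leaving out one library at a time gave 4 to 420 genes, 0 to 1278 transcripts, 1 to 23 list genes, 0 to 3 member genes and 0 to 7 member transcripts called, with the top values without AAV-GFP replicate 1. The log2 ranges were 1.54 to 2.25 for Malat1, 2.16 to 3.27 for Miat and 1.60 to 2.33 for Firre. Signs turned for Miat-204 without AAV-GFP replicate 2 (-0.002, highest 0.656 without AAV-GFP replicate 3), Ltbp3 without retained-intron transcripts (-0.10), Cdh5 without AAV-Leptin-GFP replicate 2 (0.015, lowest -0.27 without AAV-Leptin-GFP replicate 1) and S100a8 without AAV-GFP replicate 3 (-0.011, highest 0.876 without AAV-GFP replicate 2). Weighted by length, the share of Neat1-201 differed by 1.73 percentage points and that of Miat-201 by -2.67, against 0.365 and -8.02. Except where the setting itself changed what was tested, the cause was not tested.

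Libraries with the same replicate number did not deviate together (correlations 0.034, -0.07 and -0.024), so the numbers were not taken as pairs, and the replicate block gave limma adjusted p of 0.0659 for Malat1, 0.0698 for Miat and 0.0731 for Firre.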

Other observations

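Some long non-coding RNAs of similar or higher level did not move with the members. Norad had 650, 697 and 665 TPM with AAV-Leptin-GFP and 665, 676 and 685 TPM with AAV-GFP (log2 difference -0.01, SE 0.04, limma adjusted p = 0.920). Oip5os1 averaged 98.4 ± 7.04 TPM with AAV-Leptin-GFP and 98.3 ± 4.62 TPM with AAV-GFP. Bc1, a small RNA of neuronal dendrites, spread most between libraries, at 887, 68.8 and 16.2 TPM with AAV-Leptin-GFP and 714, 4595 and 62.5 TPM with AAV-GFP. Norad, Oip5os1 and Bc1 were chosen after their values were seen. Whether the place of an RNA in the cell goes with its difference was not tested.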
